A study of Mus musculus with 384 samples.

Results

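Dopamine neurons are defined by a small set of genes that make, store, recover and break down their transmitter, and 10 of these were followed here in single mouse neurons: *Th*, *Ddc*, *Slc6a3*, *Slc18a2*, *Gch1*, *Pts*, *Spr*, *Qdpr*, *Maoa*, and *Maob*. They were chosen by gene symbol and are 10 of the 47082 gene entries in the deposited count table, 26750 of which had at least 1 read in any cell. All 10 had reads. The cells came from 8 DAT-IRES-Cre;Ai9 mice on a C57BL6/J background, 3 labelled female and 5 labelled male, aged 24 to 36 days. In these mice Cre is expressed from the *Slc6a3* locus and switches on the tdTomato reporter for good, so every cell collected had been chosen through past or present expression of a gene that is itself one of the 10. Propidium iodide-negative, tdTomato+ cells were sorted from dissociated midbrain, with the hypothalamus included, captured on Fluidigm C1 chips, and sequenced without molecular identifiers. Each mouse was a single animal on a single C1 run, so mouse and run cannot be told apart.

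Of 384 cells, 209 had at least 500000 reads counted on genes and were retained, 12 to 45 per mouse. Reads per retained cell ranged from 500672 to 1544824 (median 780484). The label of the cells, dopamine neuron, was checked against marker genes. At least 10 reads of *Snap25*, a synaptic protein found in all neurons, were counted in 98.1% of cells, and the median sums of astrocyte, microglial, endothelial, and serotonergic markers were 0. Those of 4 oligodendrocyte and 3 noradrenergic markers were 1.03 and 1.16 CPM (a gene's share of the reads counted in a cell, scaled to 1000000), and those of 3 GABAergic and 3 glutamatergic markers were 2.61 and 22.3 CPM. The GABAergic sum exceeded 1000 CPM in 21 cells, 17 of them rich in *Th* as defined further on (highest 5392 CPM), and the glutamatergic sum did in 8. Some cells stood apart. In 5 cells (3 of mouse 1, 1 of mouse 2, and 1 of mouse 3) *Snap25* was under 100 CPM, whereas every other cell was at 319.6 CPM or more. The cells of mice 1 and 2 had 1566 to 4235 CPM of 5 astrocyte markers in sum, and that of mouse 3 had 32170 CPM of the 4 oligodendrocyte markers. A cell of mouse 7 with 648 CPM of *Snap25* had 7114 CPM of the latter and was not left out with the 5. *Dbh*, the enzyme that turns dopamine into noradrenaline, had no read in any retained cell. Beside the main values, those without these 5 cells are given where the cells bear on them.

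Dopamine is made from tyrosine in a pair of enzymatic steps. Tyrosine hydroxylase (*Th*) makes L-DOPA and is usually rate-limiting, and aromatic L-amino acid decarboxylase (*Ddc*) makes dopamine from it. The first step consumes tetrahydrobiopterin (BH4), a cofactor that is built from GTP by GTP cyclohydrolase (*Gch1*), 6-pyruvoyltetrahydropterin synthase (*Pts*), and sepiapterin reductase (*Spr*), and is restored after use with the help of quinoid dihydropteridine reductase (*Qdpr*). The vesicular transporter VMAT2 (*Slc18a2*) loads dopamine into synaptic vesicles, the plasma membrane transporter DAT (*Slc6a3*) recovers it after release, and the monoamine oxidases of the outer mitochondrial membrane (*Maoa*, *Maob*) begin its breakdown.

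On the GRCm38.p6 build the genes lie apart on 9 chromosomes, except for the neighbouring oxidases. *Th* is at chr7:142892779-142899995 (minus strand), *Ddc* at chr11:11814101-11898144 (minus), *Slc6a3* at chr13:73536128-73578672 (plus), and *Slc18a2* at chr19:59260878-59296012 (plus). *Gch1* is at chr14:47153895-47189413 (minus), *Pts* at chr9:50521617-50528716 (minus), *Spr* at chr6:85133680-85137764 (minus), and *Qdpr* at chr5:45434032-45450229 (minus). *Maoa* (chrX:16619698-16687812, plus) and *Maob* (chrX:16709281-16817366, minus) face each other on the X chromosome with 21469 bases between their ends. The libraries did not keep strand, and 18.6% of the exon bases of *Qdpr* and 2.12% of those of *Slc18a2* are shared with an annotated gene on the opposite strand. Reads there cannot be told apart, and where the authors' annotation held both genes they were left out.

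Promoters are shown for the 4 genes of synthesis, storage, and uptake, because their levels varied together from cell to cell, as given further on. The sequences are from RefSeq and run from 250 bases before the start of transcription to 50 bases after it, 5′ to 3′ on the strand of the gene. They were found for 9 of the 10 genes. The start used for *Slc6a3* lies inside the interval given above, downstream of its first base. Capitals mark the cAMP response element TGACGTCA and the NBRE, AAAGGTCA (TGACCTTT on the other strand), the element that binds NR4A receptors such as *Nr4a2*.
*Th*, chr7:142899946-142900245, minus strand: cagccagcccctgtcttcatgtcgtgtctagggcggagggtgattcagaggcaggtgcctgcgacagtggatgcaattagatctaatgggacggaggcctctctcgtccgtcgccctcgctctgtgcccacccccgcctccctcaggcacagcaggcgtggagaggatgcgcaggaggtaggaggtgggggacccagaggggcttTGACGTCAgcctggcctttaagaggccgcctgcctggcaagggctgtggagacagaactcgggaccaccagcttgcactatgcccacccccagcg
*Slc18a2*, chr19:59260628-59260927, plus strand: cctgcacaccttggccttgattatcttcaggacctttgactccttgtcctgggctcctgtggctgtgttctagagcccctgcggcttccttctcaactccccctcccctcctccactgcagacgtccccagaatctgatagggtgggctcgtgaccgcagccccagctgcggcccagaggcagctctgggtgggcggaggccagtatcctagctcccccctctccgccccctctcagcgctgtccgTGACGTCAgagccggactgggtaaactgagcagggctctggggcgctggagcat
*Ddc* (the first of its promoters), chr11:11898095-11898394, minus strand: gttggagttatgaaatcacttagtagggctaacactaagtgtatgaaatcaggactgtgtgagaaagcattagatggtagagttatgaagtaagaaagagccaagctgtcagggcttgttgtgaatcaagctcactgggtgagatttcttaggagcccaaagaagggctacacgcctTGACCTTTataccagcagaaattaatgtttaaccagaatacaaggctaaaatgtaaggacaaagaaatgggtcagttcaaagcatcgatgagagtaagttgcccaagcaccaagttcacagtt
*Slc6a3*, chr13:73536497-73536796, plus strand: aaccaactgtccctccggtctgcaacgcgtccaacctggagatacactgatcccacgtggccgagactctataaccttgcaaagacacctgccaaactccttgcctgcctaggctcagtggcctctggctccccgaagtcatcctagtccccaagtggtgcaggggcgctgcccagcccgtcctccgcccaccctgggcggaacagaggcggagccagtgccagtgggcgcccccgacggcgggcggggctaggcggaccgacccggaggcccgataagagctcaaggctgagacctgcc
TGACGTCA, which reads the same on both strands, was present in the promoters of *Th*, 45 bases before the start, and *Slc18a2*, 4 bases before it. It was present in 1.79% of all 32851 promoters of this length. The NBRE was present only in the *Ddc* promoter shown, 73 bases before the start and overlapping a TATA box on the other strand (TTTATA), and in 1.51% of all promoters. The GC box GGGCGG (either strand) was in 8 of the 10 promoters of these genes, both *Ddc* promoters being the ones without it, against 35.7% of all promoters. TATAAA (either strand) was in a promoter of *Ddc* and in that of *Gch1*, and in 13.6% of all promoters. These matches describe letters in a window, and binding was not measured.

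The 4 genes of synthesis, storage, and uptake were among the most abundant transcripts of the cells, and the cofactor and breakdown genes were far lower in that order. When all genes with a read in the retained cells (25681) were ranked by mean CPM over cells, *Th* was at rank 8, *Slc6a3* at 20, *Ddc* at 31, and *Slc18a2* at 38. The other members ranked 1031 (*Qdpr*), 1887 (*Maoa*), 2311 (*Gch1*), 3225 (*Pts*), 5610 (*Maob*), and 6166 (*Spr*). The same 4 genes took a mean of 1.298% of all reads of a cell (median 1.37%, highest 3.30%), and all 10 genes together took 1.35%.

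To compare levels between genes, the reads of a mouse were summed over its cells and scaled to 1000000 reads and divided by exon length in kilobases (RPKM). *Th* was highest at 2581 ± 660 RPKM (SD, n = 8 mice; lowest mouse 1895, median 2513, highest 3680). *Slc6a3* followed at 818 ± 243 RPKM (558, 801, and 1314) and *Ddc* at 428.5 ± 111 RPKM (242, 421, and 588). *Slc18a2* was at 321 ± 89.0 RPKM (207, 326, and 482). The range of *Th* overlapped no other, those of *Slc6a3* and *Ddc* and of *Ddc* and *Slc18a2* overlapped, and within each mouse the order of the 4 was the same. Among the genes of the cofactor, *Qdpr*, which restores BH4, was highest at 107.5 ± 24.9 RPKM (78.3, 103, and 161). The genes that build BH4 were lower, *Gch1* at 14.2 ± 4.35 RPKM (8.90, 13.8, and 21.0), *Pts* at 10.4 ± 2.96 RPKM (7.94, 9.47, and 16.7), and *Spr* at 8.20 ± 3.12 RPKM (4.71, 8.52, and 14.2). Of the oxidases, *Maoa* was at 27.3 ± 6.38 RPKM (19.7, 25.2, and 34.9) and *Maob* at 12.3 ± 6.00 RPKM (6.07, 11.7, and 22.1).

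Neighbours in this order were compared within mice by an exact sign-flip permutation test (two-sided, 9 pairs, Benjamini-Hochberg adjusted). *Th* exceeded *Slc6a3* by 1.67 ± 0.41 on the log2 RPKM scale (SD, n = 8 mice), *Slc6a3* exceeded *Ddc* by 0.93 ± 0.31, and *Ddc* exceeded *Slc18a2* by 0.42 ± 0.34. *Slc18a2* exceeded *Qdpr* by 1.56 ± 0.66, *Qdpr* exceeded *Maoa* by 1.98 ± 0.39, and *Maoa* exceeded *Gch1* by 0.96 ± 0.44. Each of these 6 differences had the same sign in 8 of 8 mice, with an exact permutation p = 0.0078125, the smallest that 8 mice allow, and adjusted p = 0.0117. With lengths from all exons, the 4 lowest genes could not be ordered beyond their spread. *Gch1* was above *Maob* in 5 of 8 mice (exact permutation adjusted p = 0.201), *Maob* above *Pts* in 3 of 8 (0.617), and *Pts* above *Spr* in 5 of 8 (0.202). The length chosen for a gene exchanged 2 of the 9 steps. With the longest transcript in place of all exons, *Ddc* stood above *Slc6a3* (−0.22 ± 0.31 log2 for *Slc6a3* over *Ddc*, *Slc6a3* higher in 3 of 8 mice) and *Pts* above *Maob*. *Maoa* then exceeded *Gch1* by 0.13 ± 0.44 log2, in 5 of 8 mice, and no longer passed (exact permutation adjusted p = 0.448). *Gch1* exceeded *Maob* in 8 of 8 mice (0.92 ± 0.52 log2) and *Pts* exceeded *Spr* in 7 of 8 (0.93 ± 0.73), and both passed (exact permutation adjusted p = 0.0141 and 0.0234).

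**Figure D1:**
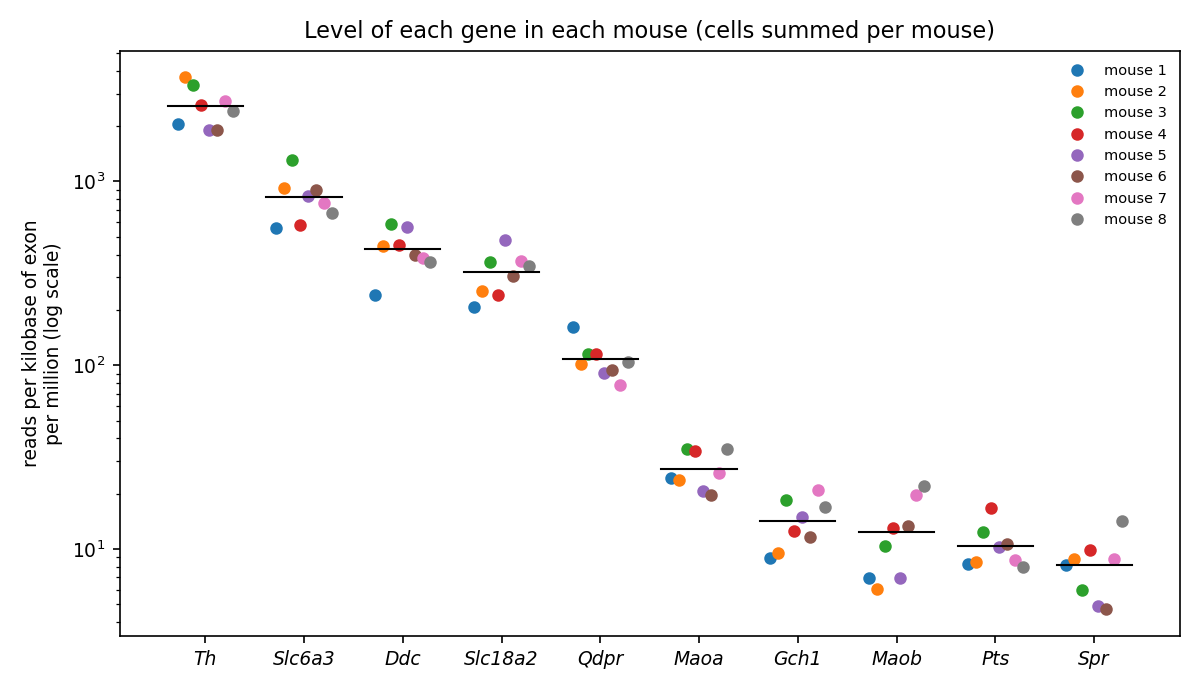
Level of each of the 10 genes in each mouse, in RPKM on a log axis, with cells summed per mouse; points are the 8 mice and bars the mean. *Th* sits highest between 1895 and 3680, *Slc6a3*, *Ddc*, *Slc18a2*, and *Qdpr* step down from it, and *Gch1*, *Maob*, *Pts*, and *Spr* overlap at the bottom.

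The mice agreed in these levels to within a few-fold. In CPM, which for 1 gene needs no length, the highest mouse was 1.77 times the lowest for *Maoa*, 1.94 times for *Th*, and 2.06 times for *Qdpr*. It was 2.11 times the lowest for *Pts*, between 2.33 and 2.43 times for *Ddc*, *Slc6a3*, *Slc18a2*, and *Gch1*, 3.02 times for *Spr*, and 3.64 times for *Maob*. *Th* was at 4852, 8699, 7918, 6187, 4480, 4518, 6473, and 5692 CPM in mice 1 to 8, with mouse 2 highest. *Maob* was at 19.4, 16.9, 28.9, 36.5, 19.5, 37.2, 55.0, and 61.6 CPM, with mice 7 and 8 highest. Single cells varied far more than mice. Over the 209 cells *Th* ranged from 1.12 to 20470 CPM (median 6463), *Slc6a3* from 1.47 to 8562 (median 2929), *Ddc* from 1.47 to 4420 (median 2271), and *Slc18a2* from 0 to 6213 (median 1763). Without the 5 cells that stood apart, the lowest values were 1.12, 63.2, 49.9, and 3.52 CPM in that order. The share of the variance of log2(CPM + 1) that lay between mice was between 4.93% (*Qdpr*) and 17.8% (*Ddc*).

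The genes also differed in how many cells had them. A cell was counted as positive from 10 reads, and intervals are exact 95% binomial intervals, which cover counting error only. *Ddc* was present in 98.6% of cells (206 of 209, 95.9–99.7%), *Slc6a3* and *Slc18a2* each in 98.1% (205 of 209, 95.2–99.5%), and *Th* in 94.7% (198 of 209, 90.8–97.3%). *Qdpr* was present in 92.8% (88.4–95.9%) and *Maoa* in 85.6% (80.2–90.1%). *Pts* (74.6%, 68.2–80.4%) and *Gch1* (73.7%, 67.2–79.5%) were present in about equal numbers of cells, *Spr* in 41.6% (34.9–48.6%), and *Maob* in 28.7% (22.7–35.4%). Shares differed between mice most for *Gch1*, from 33.3% of the 18 cells of mouse 1 to 93.3% of the 45 cells of mouse 3, and for *Maob*, from 10.5% in mouse 5 to 57.1% in mouse 8. From 1 read, *Th*, *Ddc*, and *Slc6a3* were present in 209 of 209 cells and *Maob* in 41.1%. Thinning every cell to 500000 reads lowered *Gch1* to 68.4%, *Maoa* to 79.4%, and *Maob* to 27.3%. Without the 5 cells that stood apart, *Ddc* and *Slc6a3* were present in 204 of 204 cells, *Slc18a2* in 203, and *Th* in 196, and the shares of *Qdpr*, *Maoa*, *Pts*, *Gch1*, *Spr*, and *Maob* were 94.1%, 87.3%, 76.5%, 75.5%, 42.2%, and 29.4%.

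**Figure D2:**
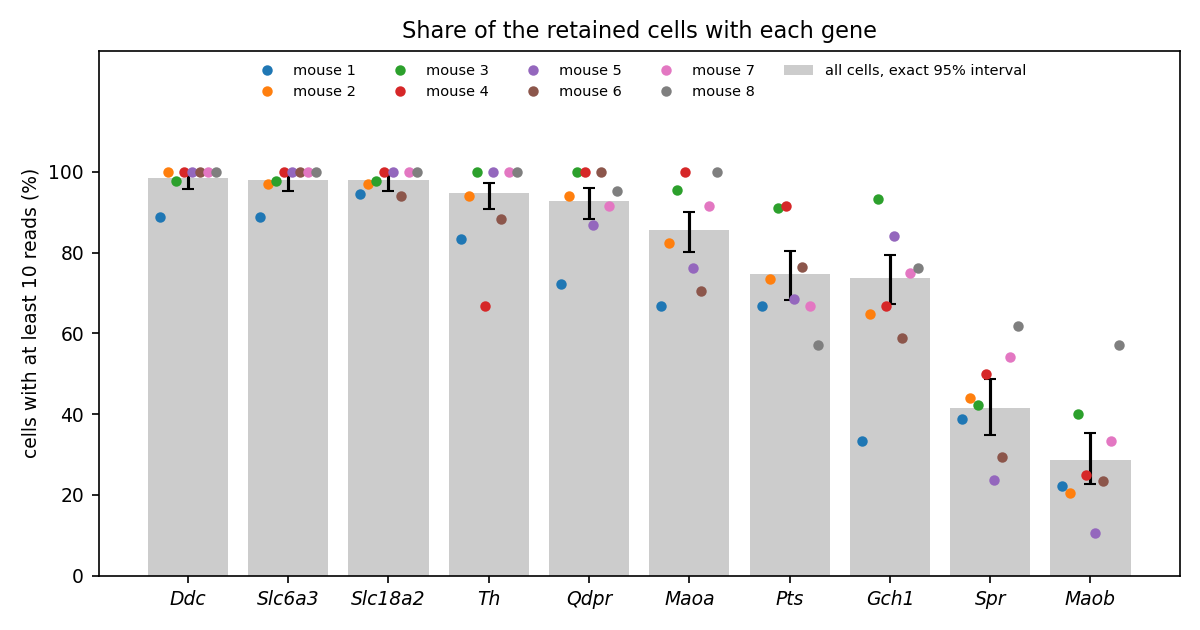
Percent of the 209 retained cells with at least 10 reads of each gene: bars with exact 95% intervals are all cells, and points are the 8 mice. The 4 genes of synthesis, storage, and uptake are above 94% of all cells, and *Spr* and *Maob* are below 42%.

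Seen cell by cell, 196 cells (93.8%) had all 4 of *Th*, *Ddc*, *Slc6a3*, and *Slc18a2*, and 23 cells (11.0%) had all 10 genes. All 4 cofactor genes were present together in 57 cells (27.3%). Of the 11 cells without *Th*, 9 had *Ddc*, 8 had *Slc6a3*, 9 had *Slc18a2*, and 1 had *Gch1*. Without the 5 cells, 195 of 204 cells had all 4 genes, 8 cells lacked *Th*, and *Ddc*, *Slc6a3*, and *Slc18a2* were each present in 8 of 8. The oxidases were unequal partners: 122 cells (58.4%) had *Maoa* alone, 57 (27.3%) had both, 3 (1.44%) had *Maob* alone, and 27 (12.9%) had neither. *Maob* is known from astrocytes and serotonergic neurons, so their markers were summed in the 60 cells with *Maob*. The sum of 5 astrocyte markers had a median of 0 and a highest value of 25.5 CPM in these cells, against a highest value of 4235 CPM in the 149 cells without *Maob*. The sum of 4 oligodendrocyte markers had a median of 2.93 CPM and reached 7114 CPM, in the cell of mouse 7 named above, against a highest value of 32170 CPM in cells without *Maob*. The sum of 3 serotonergic markers had a median of 0 and a highest value of 27.2 CPM, and *Slc6a4* and *Fev* had no read in any cell. Whether reads from other cells had a part in *Maob* was not tested beyond these sums.

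Other genes of the same pathways, from lists made for this purpose, were present in very different shares of cells. Of the enzymes that handle the aldehyde left by the oxidases, *Akr1a1* was in 100% of cells, *Akr1b3* in 86.6%, *Aldh1a1* in 79.0%, *Aldh1a7* in 35.4%, *Aldh2* in 16.3%, and *Aldh1b1* in 5.26%. *Sult1a1*, a sulfotransferase, was in 0.957%. Of genes that serve the cofactors, *Pdxk*, whose enzyme phosphorylates the vitamin B6 from which the cofactor of *Ddc* is made, was in 96.7% of cells. *Pcbd1*, which works beside *Qdpr*, was in 87.6%, *Pcbd2* in 14.8%, and *Gchfr*, the feedback regulator of GTP cyclohydrolase, in 2.39%. The enzymes of other monoamines were nearly absent: *Dbh*, *Pnmt*, and *Tph1* had no read, *Hdc* was in 0.478%, and *Tph2* in 5.26%. Of the other monoamine transporters, *Slc29a4* was in 19.6% of cells, *Slc18a1* in 6.70%, and *Slc22a3* in 5.26%, and *Slc22a2*, *Slc6a2*, and *Slc6a4* reached 10 reads in no cell. Of 10 factors of dopamine neuron identity, *Nr4a2* (94.3%) and *En1* (85.2%) were the most widespread, *Lmx1a* was in 51.2%, and *Pitx3* in 15.3%.

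Whether the genes vary together from cell to cell was described by correlation. The cells of a mouse share an animal and a C1 run, all values share a cell's total reads, and no test was made. Over the 209 cells, the 6 pairs among *Th*, *Ddc*, *Slc6a3*, and *Slc18a2* had a mean Spearman correlation of 0.577 (0.383 to 0.688). The closest pair was *Ddc* and *Slc18a2* (0.688), then *Ddc* and *Slc6a3* (0.683) and *Slc6a3* and *Slc18a2* (0.678), and *Th* and *Slc18a2* were the least close (0.383). Within mice, the mean Pearson correlation of log2(CPM + 1) over these pairs was 0.739 ± 0.126 (SD, n = 8 mice), lowest in mouse 5 at 0.606 and highest in mouse 3 at 0.938, and each of the 6 pairs was positive in 8 of 8 mice. These values within mice leaned on few cells. Without the 5 cells that stood apart, the mean was 0.586 ± 0.200, that of mouse 3 was 0.147 with 1 cell fewer, and 5 of the 6 pairs were positive in every mouse. The mean Spearman correlation was then 0.546 over 204 cells. In the 181 cells with at least 1000 CPM of *Th* it was 0.3895, with the pair of *Th* and *Slc18a2* at 0.0833, and with all cells thinned to 500000 reads it was 0.577.

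The cofactor genes varied with the dopamine genes unequally. *Gch1* had Spearman correlations of 0.484 with *Slc18a2*, 0.443 with *Th*, 0.411 with *Slc6a3*, and 0.387 with *Ddc*, each positive in 8 of 8 mice; without the 5 cells that stood apart, the value with *Slc6a3* was positive in 7. *Pts*, *Spr*, and *Qdpr* had correlations with the same 4 genes that averaged 0.151 (0.0637 to 0.267), or 0.117 without the 5 cells. Among themselves the 4 cofactor genes averaged 0.0755 (−0.0193 to 0.227), or 0.0525 without the 5 cells, and *Gch1* and *Qdpr* were at −0.0193, positive in 3 of 8 mice. *Qdpr* went against the dopamine genes in mouse 3 (−0.538 with *Th*) and with them in mouse 1 (0.423). The cell of mouse 3 that stood apart had 862 CPM of *Qdpr*, and 18.0 CPM of *Th*. Without it the correlation of *Qdpr* in that mouse was −0.44 with *Th*, and it turned from −0.33 to 0.33 with *Slc6a3* and from −0.36 to 0.26 with *Slc18a2*. Without the 3 cells of mouse 1, the values there turned negative, −0.12 with *Th*, −0.0574 with *Ddc*, −0.18 with *Slc6a3*, and −0.30 with *Slc18a2*. *Maoa* had a correlation of 0.458 with *Th* and between 0.319 and 0.360 with the other 3, positive in 8 of 8 mice for each (7 of 8 for *Th* and *Slc6a3* without the 5 cells), and 0.249 with *Maob*. *Maob* was at 0.274 with *Th* and 0.0611 with *Ddc*. Over all 45 pairs the median was 0.202, and 18 pairs were positive in every mouse, or 12 without the 5 cells. Pairs positive in every mouse were not counted over all genes. The median Spearman correlation over 12106 genes was 0.055 with *Th*, 0.082 with *Ddc*, 0.098 with *Slc6a3*, and 0.072 with *Slc18a2*. By correlation with these 4, *Gch1* ranked 34 to 227 among all genes and *Maoa* 26 to 479. *Pts*, *Spr*, and *Qdpr* ranked 544 to 6384, and *Maob* 484 to 6830. The 4 ranked 1 to 162 among themselves.

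**Figure D3:**
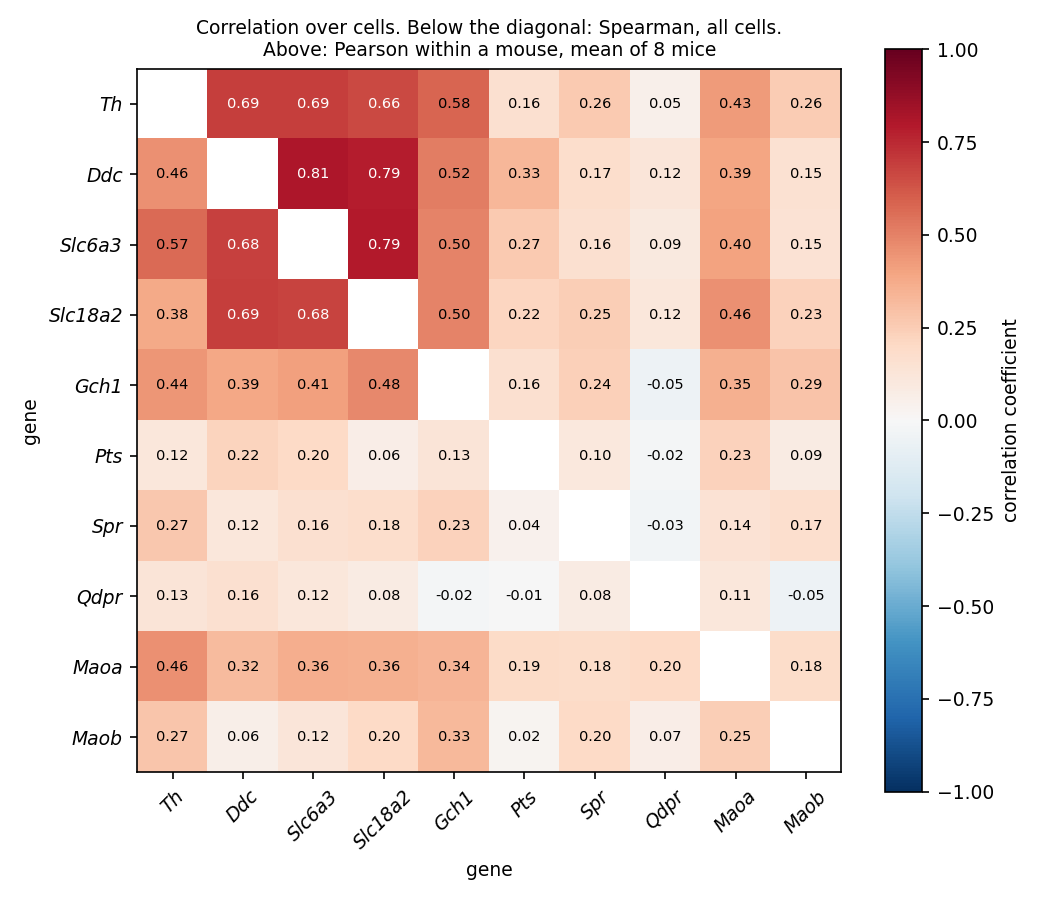
Correlation over cells for each pair of genes, Spearman over all 209 cells below the diagonal and the mean over 8 mice of the Pearson correlation within a mouse above it. *Th*, *Ddc*, *Slc6a3*, and *Slc18a2* form a block of 0.383 to 0.688 (Spearman), *Gch1* and *Maoa* join it at lower values, and *Pts*, *Spr*, and *Qdpr* average 0.151 with these 4 genes.

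The genes most like each member over the 209 cells, by Spearman correlation of CPM, were for *Ddc* 2 other members and a synaptic gene, *Slc18a2* (0.688), *Slc6a3* (0.683), and the vesicle calcium sensor *Syt1* (0.668). *Slc18a2* was most like the vesicle transporter *Slc10a4* (0.715), *Syt1* (0.705), and *Ddc*. *Slc6a3* was most like *Cplx1* (0.739), *Pou3f2* (0.691), and *Serpine2* (0.684), and *Th* like *Tuba1a* (0.685) and *Tagln3* (0.588). The remaining members had lower values: *Gch1* was most like *Slc18a2* (0.484), *Slc10a4* (0.464), and *B3galt1* (0.461), and *Maoa* like *Th* (0.458) and *Atp6ap2* (0.399). *Maob* was most like *Ddah1* (0.400), *Pcp4l1* (0.390), and *Sdc2* (0.381). The highest value was 0.330 for *Pts* (*Abi2*), 0.320 for *Spr* (*Pfkp*), and 0.312 for *Qdpr* (*Parl*), followed by *2210013O21Rik* and *Gm14440* for *Pts*, *Rsu1* and *Tmem41a* for *Spr*, and *Phax* and *Gdap1l1* for *Qdpr*. When the 5 cells that stood apart were left out, 24 of these 28 genes were still among the 3 most like their member, *Tagln3*, *B3galt1*, *Gm14440*, and *Phax* were not, and no value fell by more than 0.0413.

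A minority of cells had little *Th*. In 28 of the 209 cells *Th* was under 1000 CPM (Th-poor cells, highest 757 CPM), and the other 181 started at 1083 CPM, with 5 cells between 500 and 1000 CPM and 15 between 1000 and 2000 CPM. Th-poor cells were found in all 8 mice, 7 of 18 cells in mouse 1 and 1 of 45 in mouse 3. Most of them still had the other dopamine genes: *Ddc* and *Slc18a2* were present in 25 of 28, *Slc6a3* in 24 of 28, and all of *Ddc*, *Slc6a3*, and *Slc18a2* were at 100 CPM or more in 18 of 28. Each of the 3 was present in 23 of 23 when the 5 cells that stood apart were left out. *Gch1* was present in 4 of 28 (14.3%, 4.03–32.7%) against 150 of 181 Th-rich cells (82.9%, 76.6–88.1%), *Maob* in 1 of 28 (3.57%, 0.0904–18.4%) against 59 of 181 (32.6%, 25.8–40.0%), and *Pts* in 19 of 28 against 137 of 181. Median reads were 705171 in Th-poor and 783981 in Th-rich cells. All 5 cells that stood apart were Th-poor, and so was the cell of mouse 7, which was the Th-poor cell with *Maob*. Without the 5, *Gch1* was present in 4 of 23 Th-poor cells and *Maob* in 1. *Slc17a6*, the vesicular glutamate transporter VGLUT2, was present in 20 of 28 Th-poor cells and 93 of 181 Th-rich cells, and *Slc32a1*, the vesicular transporter of GABA, in 7 of 28 and 11 of 181.

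The 2 classes were compared by summing cells per mouse and class in those 5 mice that had 3 or more cells in both classes (24 Th-poor and 95 Th-rich cells; edgeR quasi-likelihood test, Benjamini-Hochberg adjusted over 11323 genes). The 2 classes of a mouse share that mouse. *Th* made the classes and was not tested. Of the other 9 genes, *Slc6a3*, *Slc18a2*, and *Gch1* were lower in Th-poor cells; 0.309% of all genes tested were called lower. In mice 1, 2, 4, 5, and 6, *Slc6a3* was at 263, 602, 360.0, 582, and 397 CPM in Th-poor cells and at 2865, 3566, 2945, 3132, and 4063 CPM in Th-rich cells. No mouse overlapped, and the difference was −2.86 ± 0.27 on the log2 scale (SE, edgeR adjusted p = 0.000533). *Slc18a2* was at 364, 332, 324, 616, and 431 CPM against 1484, 1463, 1793, 2713, and 2012 CPM, again without overlap (−2.15 ± 0.25 log2, edgeR adjusted p = 0.00319). *Gch1* was at 8.47, 1.32, 3.55, 9.06, and 2.12 CPM against 82.3, 67.8, 122, 102, and 97.8 CPM (−4.25 ± 0.62 log2, edgeR adjusted p = 0.0169). The Th-poor values of *Gch1* lay near the floor, and it passed the filter through the Th-rich sums, so its fold is uncertain. *Gch1*, the gene that commits GTP to BH4, was under 10 CPM in the Th-poor sum of each of the 5 mice, although a Th-poor cell of mouse 1 had 64.5 CPM. The Th-poor cell of mouse 8, a mouse outside the 5, had 209.6 CPM.

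*Ddc* was also lower in 5 of 5 mice, at 389, 981, 561, 1269, and 576 CPM against 1470, 2129, 2834, 2630, and 2193 CPM, without overlap, but did not pass (−1.54 ± 0.33 log2, edgeR adjusted p = 0.0827). *Maob* was at 0.435, 0, 2.90, 0, and 0.265 CPM against 30.0, 19.5, 55.8, 21.5, and 50.1 CPM, without overlap and without passing (edgeR adjusted p = 0.0902). It was near the floor in Th-poor cells and passed the filter of edgeR through the Th-rich sums, which limits any call of it. The other 4 genes were lower in some mice and higher in others. *Pts*, *Spr*, and *Qdpr* differed by −0.18 ± 0.40, −0.67 ± 1.02, and −0.47 ± 0.37 log2, and *Maoa* by −1.32 ± 0.75 log2, with overlap between the classes for each of the 4. Overlap was not counted over all genes tested, so its absence is a description only. With DESeq2, *Ddc* and *Maob* passed too (5 of 9, 5.1% of all genes in either direction). With the mouse as a block, 2 of 9 passed (0.0883% of all genes in either direction), and *Gch1* was at adjusted p = 0.0762. The call for *Gch1* was lost when mouse 4, 5, or 6 was left out (edgeR adjusted p = 0.0922, 0.0969, and 0.137), and that for *Slc18a2* without mouse 6 (0.0683). With cells of at least 100000 reads, *Gch1* differed by −1.51 log2 and was not called (0.426), and *Ddc* and *Maob* were (0.0385 and 0.0127).

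Markers of astrocytes moved with the classes: the sum of 5 was at 1536 and 312 CPM in the Th-poor cells of mice 1 and 2 and at 0 in those of mice 4, 5, and 6, against 0 to 1.59 CPM in Th-rich cells. Of the 5, *Gja1* was called higher by DESeq2 (adjusted p = 0.00258), and none passed the filter of edgeR. Without the 5 cells of low *Snap25* the sum was at 7.21 CPM in mouse 1 and at 0 in mouse 2, and the same 3 members were lower, *Slc6a3* by −2.70, *Slc18a2* by −1.98, and *Gch1* by −3.95 log2 (edgeR adjusted p = 0.000287, 0.00339, and 0.0177). The sum of 4 oligodendrocyte markers was at 6.04 to 116 CPM in Th-poor and 14.3 to 61.8 CPM in Th-rich cells. Of the 5 enzymes of breakdown that were tested beside the members, *Aldh1a1* (−5.89 ± 1.07 log2, edgeR adjusted p = 0.0365) and *Aldh1a7* (adjusted p = 0.0315) were lower. *Aldh1a7* was at 0 CPM in the Th-poor cells of 4 of the 5 mice and at 1.85 CPM in the other, against 2.45 to 265 CPM in Th-rich cells, through which it passed the filter, so no fold is given. Neither gene passed with the mouse as a block (0.0762 and 0.0517). Over all 11323 genes tested, 1060 had an unadjusted edgeR p under 0.05. None of the other 5 cofactor genes tested passed with edgeR or DESeq2 (2 at an unadjusted edgeR p under 0.05). Of 9 identity factors none passed with edgeR (3 at an unadjusted p under 0.05) and *Otx2* did with DESeq2, and *Nr4a2* was at −0.22 ± 0.34. Of 4 pan-neuronal markers, the synaptic gene *Syt1* was lower (−2.20 ± 0.34, edgeR adjusted p = 0.0242; 0.0559 with the block), and 3 had an unadjusted p under 0.05, *Snap25* being at −0.90 ± 0.27 and the tubulin gene *Tubb3* at −0.61 ± 0.28. The median over all genes tested was 0.0996 log2, that of the cofactor list −0.42, and that of the breakdown list −0.63. *Slc17a6* was at 2.32 ± 0.48 log2, higher in 4 of 5 mice (edgeR adjusted p = 0.0722), and was called by DESeq2 (adjusted p = 0.00138).

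**Figure D4:**
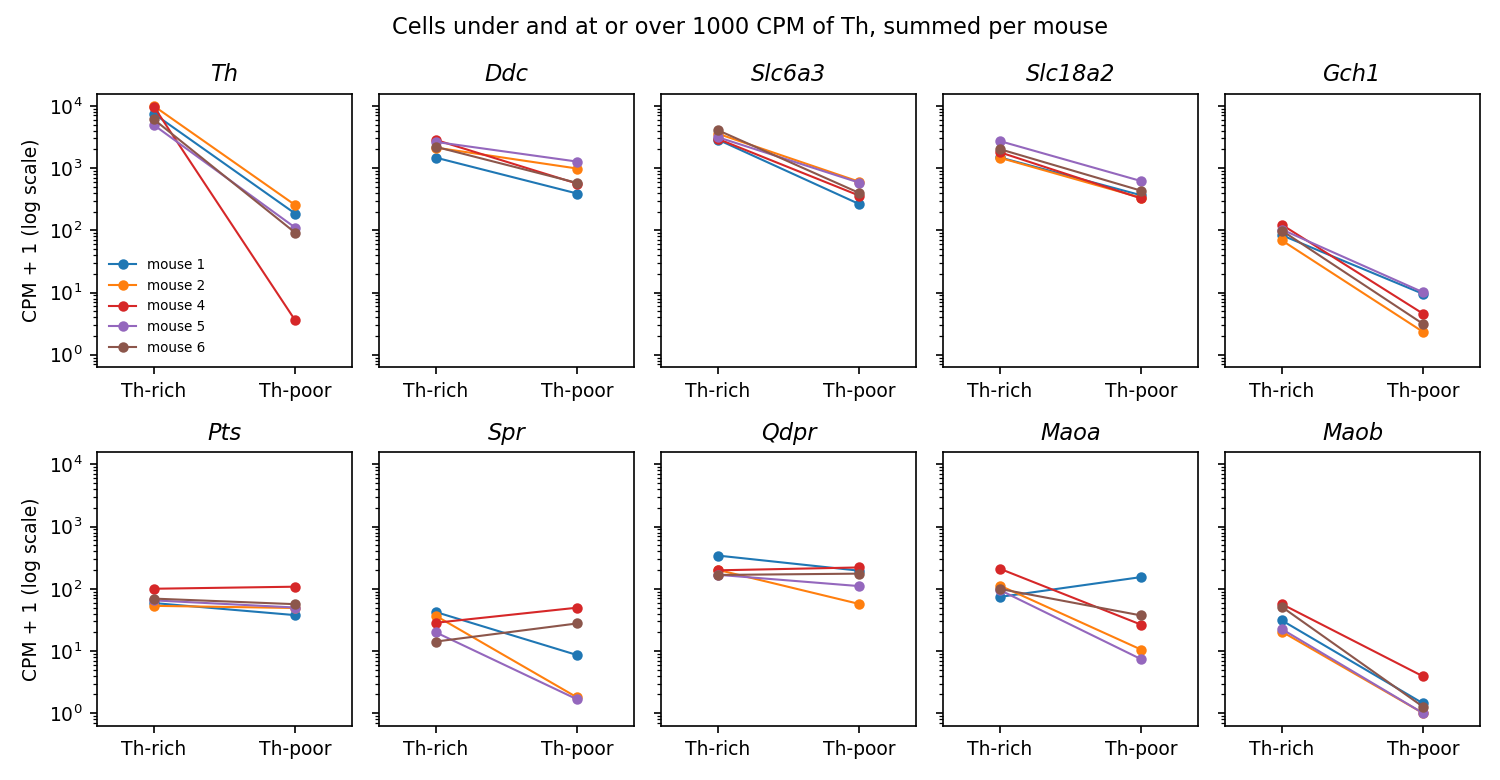
CPM plus 1, on a log axis, of the genes in Th-rich and Th-poor cells, with a line for each of the 5 mice tested. *Th*, which made the classes, *Ddc*, *Slc6a3*, *Slc18a2*, *Gch1*, and *Maob* fall along every line, and their classes do not overlap. The lines of *Pts*, *Spr*, *Qdpr*, and *Maoa* run both ways.

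Next, cells with and without *Aldh1a7*, an aldehyde dehydrogenase gene used here as a marker of nigral-type neurons, were compared (at least 10 reads; 7 mice, 74 positive and 117 negative cells). *Slc6a3* was higher in positive cells, and it was the only 1 of the 10 genes called; 0.141% of all genes tested were called higher. It was at 3363, 4299, and 6178 CPM (lowest, median, and highest mouse) in positive cells and at 990, 2022, and 3744 CPM in negative cells, higher in 7 of 7 mice (1.27 ± 0.24 log2, edgeR adjusted p = 0.0334). The ranges overlap. *Ddc* was higher in 7 of 7 mice (0.71 ± 0.16 log2) and *Th* and *Slc18a2* in 6 of 7 (0.62 ± 0.22 and 0.79 ± 0.20), none of them called. The cofactor genes and oxidases were between −0.94 (*Maob*) and 0.40 (*Maoa*). DESeq2 called *Ddc* and *Slc18a2* as well (3.42% of all genes), and with the mouse as a block *Slc6a3* alone was called (0.227% of all genes). All 28 Th-poor cells were negative for *Aldh1a7*. Markers of other cells moved with these classes: the myelin gene *Mbp* had a mean of 8.71 CPM over the positive sums and 287 CPM over the negative ones, and *Gad2*, which makes GABA, 18.2 and 360 CPM, both called by DESeq2 (adjusted p = 0.00214 and 0.00843) and not by edgeR (0.125 and 0.192). Their part in the difference was not tested. Among Th-rich cells only, the difference in *Slc6a3* was 0.99 log2 and was not called (edgeR adjusted p = 0.0874). The call was also lost when any 1 of mice 2, 4, 5, 6, 7, and 8 was left out (edgeR adjusted p = 0.0510 to 0.150), and without mouse 3 *Ddc* was called too (0.0181).

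*Neurod6*, a transcription factor gene of a ventromedial group of dopamine neurons and a marker this study turns on, split the cells into 47 positive and 133 negative in 6 mice. None of the 10 genes was called by edgeR (0.0555% of all genes) or DESeq2 (2.13% of all genes), and 2 had an unadjusted edgeR p under 0.05, against 781 of all 12606 genes tested. *Th* was at 5898, 8036, and 11830 CPM (lowest, median, highest mouse) in positive cells and at 4045, 4938, and 7838 CPM in negative cells, higher in 6 of 6 mice (0.70 ± 0.24 log2, edgeR adjusted p = 0.587). *Maob* was at 0, 58.9, and 108 CPM against 9.34, 17.0, and 25.1 CPM, higher in 5 of 6 mice (1.84 ± 0.76 log2, edgeR adjusted p = 0.732). *Slc6a3* and *Slc18a2* differed by 0.17 ± 0.31 and 0.12 ± 0.23 log2. *Mbp* was at a mean of 31.9 CPM in positive and 211 CPM in negative cells (unadjusted edgeR p under 0.05). All Th-poor cells were *Neurod6*-negative here too, and among Th-rich cells *Th* differed by 0.42 log2.

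Cells with and without *Slc17a6* were compared in all 8 mice (113 positive and 96 negative cells). None of the 10 genes was called by edgeR (0.0244% of all genes) or DESeq2 (1.18% of all genes), and 3 had an unadjusted edgeR p under 0.05, all lower in positive cells. Over all 12279 genes tested, 804 had an unadjusted edgeR p under 0.05. *Maoa* was lower in 8 of 8 mice, at 64.8, 94.9, and 126 CPM (lowest, median, highest) against 90.8, 126, and 213 CPM (−0.63 ± 0.22 log2, edgeR adjusted p = 0.572). *Slc6a3* (−0.77 ± 0.26) and *Slc18a2* (−0.48 ± 0.22) were lower in 7 of 8 mice. *Th* differed by −0.25 ± 0.26 log2. *Mbp* was at means of 39.0 CPM in positive and 204 CPM in negative cells, *Gad1* at 2.82 and 144 CPM, and *Gad2* at 361 and 54.6 CPM, each with an unadjusted edgeR p under 0.05, and their part in these values was not tested. With the mouse as a block *Gad1* was called (edgeR adjusted p = 0.0399). Of the 28 Th-poor cells, 20 were on the positive side, and among Th-rich cells only the differences were −0.61 log2 for *Slc6a3*, −0.35 for *Slc18a2*, and −0.33 for *Maoa*.

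Male and female mice were compared last, since *Maoa* and *Maob* are X-linked. The sample labels, used here, give 5 males and 3 females, whereas the series' own description counts 6 and 2, so the sex of at least 1 mouse is in doubt and with it each value by sex. None of the 10 genes was called by edgeR (0.0322% of all genes) or DESeq2 (2.02% of all genes). In males *Maoa* was at 117 ± 27.3 CPM and in females at 109 ± 30.4 CPM (SD, n = 5 and 3 mice), a difference of 0.14 ± 0.28 log2. *Maob* was at 36.4 ± 20.6 CPM against 31.0 ± 10.1 CPM (0.25 ± 0.50 log2). Only *Slc18a2* of the 10 had an unadjusted edgeR p under 0.05, as did 1261 of all 15529 genes tested. *Slc18a2* was at 1316, 1912, 2518, 1937, and 1804 CPM in the males and 1080, 1257, and 1601 CPM in the 3 females, with overlap (0.55 ± 0.22 log2, edgeR adjusted p = 0.578). The females had fewer cells, 12 to 18 per mouse against 21 to 45, and fewer summed reads in each mouse. They were aged 25, 33, and 36 days and the males 24 to 28 days, so sex and age cannot be fully told apart. Within sequencing lane 1 the *Slc18a2* difference was 1.01 log2 and within lane 2 it was 0.31, and it was 0.32 among the mice run on the C1 machine that took both sexes.

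**Figure D5:**
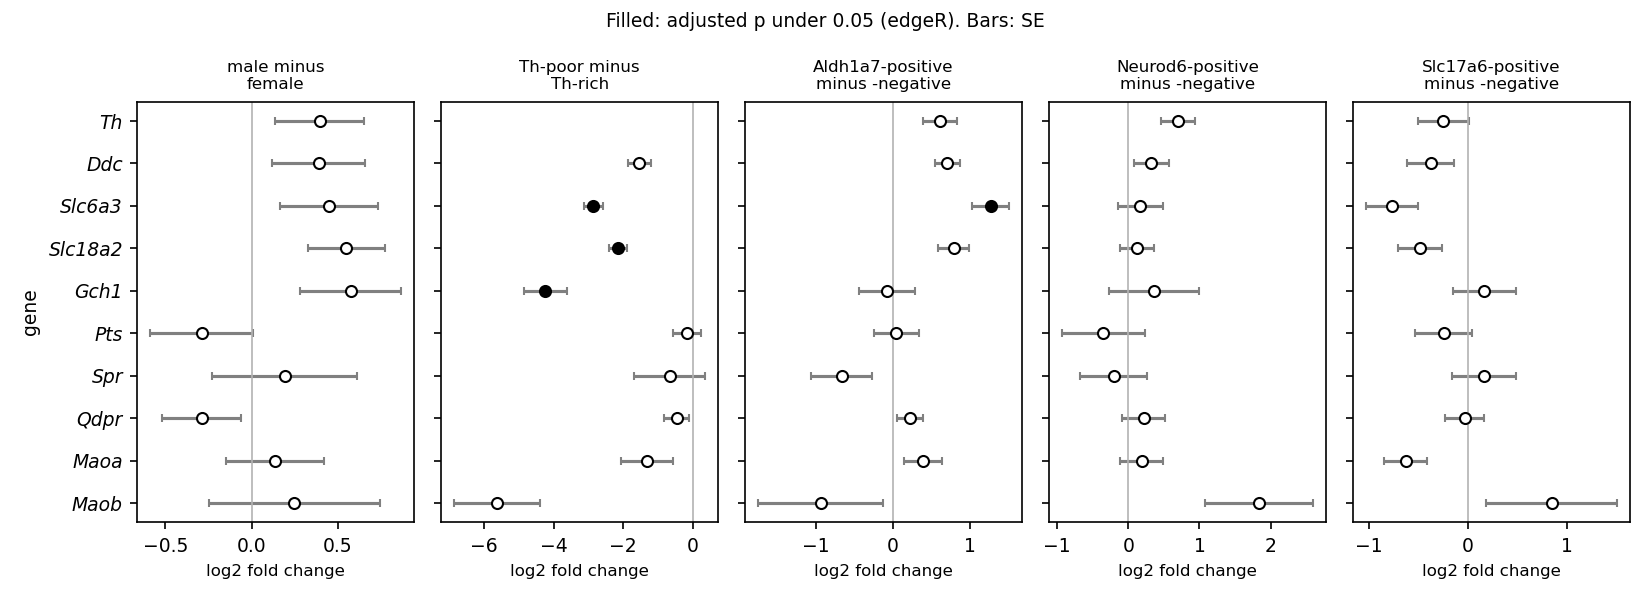
Log2 fold change of each gene with its SE (edgeR) in the comparisons of males with females, Th-poor with Th-rich cells, and cells with and without *Aldh1a7*, *Neurod6*, and *Slc17a6*; filled points passed an adjusted p of 0.05. *Slc6a3*, *Slc18a2*, and *Gch1* pass on the lower side in Th-poor cells and *Slc6a3* on the higher side in *Aldh1a7*-positive cells.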

How the data were processed

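Libraries were made with SMARTer and Nextera XT kits, which keep no strand, on Illumina HiSeq instruments. The authors made the counts: reads were trimmed (Trimmomatic 0.3.2), mapped to GRCm38.3 (TopHat2 2.1.1), and assigned to RefSeq genes by featureCounts 1.5.0-p3, those on several genes and chimeric fragments being dropped, and the table was deposited unnormalized. All columns were matched to labelled cells, whose labels gave the sex. Deposited alignment metrics name no cells and were not used.

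Cells with at least 500000 reads were retained. Sums of counts by mouse, or by class within a mouse (3 or more cells in each class), were compared by the quasi-likelihood test of edgeR 4.0.16 (R 4.3.3; TMM, filterByExpr, Benjamini-Hochberg over all genes tested, threshold 0.05), with DESeq2 1.42.0 as an alternative. Python 3.11.15, numpy 2.4.6, pandas 2.3.3, scipy 1.17.1, and matplotlib 3.10.9 were used, and the tests were tried on simulated data. Exon lengths came from GENCODE M21. The highest correlation between any pair of cells was 0.955, so none was counted as a duplicate. The classes pair by animal, and after class means were removed the classes of a mouse correlated at 0.0325–0.183 (*Th*), 0.0450–0.257 (*Aldh1a7*), 0.0786–0.313 (*Neurod6*), and 0.0303–0.337 (*Slc17a6*).

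The genes named are the 10 members, the genes that make the classes, genes of fixed pathway and marker lists, and for each member the 3 genes most correlated with it among genes that reached 10 reads in 10 or more cells. *Snap25* as a mark of cells that stand apart was picked from the marker lists after its values were seen. Some genes of the lists and of the most correlated genes are not reported here. The members and lists were chosen with earlier results of these data known. Alternatives changed the tool, scaling, gene filter, cell depth, class limits, cells per class, and mice included. Those on lane, *Snap25*, *Gad1*, and thinning of the Th classes were chosen after seeing the data.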

Additional observations from a re-analysis of the deposited data

Results flagged for a closer look

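Dixon's rule was applied to the level of each gene over the mice of each group of 4 to 10, 90 groups in all. It passed in 9 of them. Chance alone passes about 1 in 20 where values are spread normally, which was not checked for these CPM values. Each flagged mouse was the highest of its group, so the 9 cannot be set against that rate. The values are the gap to the nearest mouse as a share of the group's range. In Th-poor cells *Pts* was high in mouse 4 (0.732, 107 CPM against 36.7–55.6 in the others), *Maoa* in mouse 1 (0.797, 153 CPM against 6.38–36.2), and *Maob* in mouse 4 (0.85, 2.90 CPM against 0–0.435). In Th-rich cells *Qdpr* was high in mouse 1 (0.802, 341 CPM against 166–200.5) and *Maoa* in mouse 4 (0.715, 209 CPM against 73.0–112). *Qdpr* was also high in mouse 1 among *Neurod6*-positive cells (0.762, 476 CPM against 120–205, from 3 cells) and among *Slc17a6*-positive cells (0.733, 372 CPM against 139–201). *Gch1* was high in mouse 7 among *Neurod6*-negative cells (0.726, 172 CPM against 58.9–89.9), and *Maob* in the same mouse among *Slc17a6*-negative cells (0.664, 77.2 CPM against 0–26.0). The groups overlap in their cells, so these are not 9 separate events. The classes of mouse 4 held 4 Th-poor and 8 Th-rich cells.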

How the results depend on the processing

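No called fold change between groups or classes changed its sign under the alternatives run, but with the longest transcript as length the step from *Slc6a3* to *Ddc* did (−0.22 log2); with that length *Maoa* over *Gch1* was also lost (0.13 log2), and *Gch1* over *Maob* (0.92) and *Pts* over *Spr* (0.93) passed. Leaving out each mouse gave 6 to 6 passing steps in the order of levels, 5 to 5 genes present in at least 90% of cells, and a mean correlation of 0.531 to 0.632. It gave 1 to 3 genes lower in Th-poor cells, 0 to 2 genes in the *Aldh1a7* comparison, and 0 to 0 in those by sex, *Neurod6*, and *Slc17a6*. With cells of at least 1000000 reads, 6 mice remained, 0 steps of the order could pass (smallest p 0.03125), and 0 genes passed in the *Aldh1a7* comparison. The Th comparison could not be run there. DESeq2 called 5 genes in Th-poor cells, *Maob* among them with the limit given above, and 3 in the *Aldh1a7* comparison. Asking for 5 cells of each class gave 0 genes in both. The *Aldh1a7* comparison gave 0 genes with positive cells from 1 read or from 50 reads and 0 in Th-rich cells only, and 2 genes with cells of at least 100000 reads. With the mouse as a replicate block, 2 genes were lower in Th-poor cells and 1 was higher in *Aldh1a7*-positive cells, and 0 were called for *Neurod6* and *Slc17a6*; among the 10 members the block changed the call of *Gch1* alone, and outside them it ended those of *Aldh1a1*, *Aldh1a7*, and *Syt1* in Th-poor cells. With a limit of 2000 CPM of *Th*, *Ddc* passed and *Slc18a2* and *Gch1* did not (edgeR adjusted p = 0.0142, 0.0684, and 0.110). Their differences there were −1.38, −1.53, and −2.27 log2 in that order. Where the call of *Gch1* was lost without mouse 4, 5, or 6, its differences were −4.015, −4.556, and −4.046 log2. Over all alternatives the adjusted p in Th-poor cells ranged from 2.37e-15 to 0.499 for *Slc6a3*, 7.39e-11 to 0.408 for *Slc18a2*, and 1.86e-11 to 0.5002 for *Gch1*, the highest with 5 cells of each class, which left 2 mice. The smallest sum of a class held 2980314 reads for *Th*, 2598659 for *Aldh1a7*, 2300641 for *Neurod6*, and 2841423 for *Slc17a6*. The causes of the lost calls were not tested.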
